A study of Mus musculus with 22 samples.

Results

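The 7 genes described here, Grm2, Grm3, Grm4, Grm5, Grm6, Grm7 and Grm8, encode metabotropic glutamate receptors, and they were taken by gene identifier from the 53379 genes of the count table. All 7 passed the filter on low counts, along with 40714 genes in all. The counts came from mRNA sequencing of nuclei from the left hippocampi of adult male C57/BL6N mice. The mice were acquired at 8 weeks of age, acclimatized for 4 weeks, and killed 24 h after kainate (70 nl, 20 mM) or 0.9% NaCl (sham) was injected above the hippocampus on the right side, so the hippocampi studied lay contralateral to the injection. Of the animals given kainate, only those with convulsive seizures were included. The 8 mice per treatment were pooled into 3 samples of unequal size, each of 4 or 2 mice. Sorting on NeuN, a protein of neuronal nuclei, split the nuclei of every pool into a NeuN+ fraction (neurons) and a NeuN- fraction (glia, and whatever other cells lack the protein). The 11 libraries were 3 of kainate NeuN+, 3 of sham NeuN+, 3 of kainate NeuN- and 2 of sham NeuN- nuclei, numbered by replicate, since 1 sham NeuN- sample had failed, which left replicates 1 and 3. Their total counts ranged from 12058875 to 45428465. About 0.05 ng of RNA and 15 cycles of PCR went into kainate NeuN- replicate 2 and sham NeuN- replicate 1, while the remaining 9 libraries started from 1 ng and took 10 cycles. The p-values rest on the spread between these pools, which edgeR estimates for each gene together with that of the other genes. The reads carried no molecular identifiers.

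Metabotropic glutamate receptors are G protein-coupled receptors that respond to the transmitter glutamate more slowly than the ion channel receptors on which kainate acts. Group I receptors, here Grm5, couple to Gq and phospholipase C, release calcium from internal stores and sit mainly on the postsynaptic side. Group II (Grm2 and Grm3) and group III (Grm4, Grm6, Grm7 and Grm8) couple to Gi/o, lower cyclic AMP and sit largely on axon terminals, where they restrain transmitter release. In the hippocampus, mGlu2 is known from the perforant path and mossy fibres, mGlu3 from astrocytes as well as neurons, mGlu7 from the active zone of terminals, and mGlu8 from the lateral perforant path. mGlu6 is the receptor of ON bipolar cells in the retina.

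In the GENCODE M21 annotation of GRCm38, the build of the files, Grm5 (ENSMUSG00000049583.15) spans chr7:87584168-88134907 on the plus strand. Grm2 (ENSMUSG00000023192.12) lies at chr9:106643095-106656082 and Grm3 (ENSMUSG00000003974.6) at chr5:9485541-9725170, both on the minus strand. Among group III, Grm4 (ENSMUSG00000063239.16) lies at chr17:27422387-27521403 on the minus strand and Grm6 (ENSMUSG00000000617.14) at chr11:50850685-50866208 on the plus strand. Grm7 (ENSMUSG00000056755.13, plus strand, chr6:110645581-111567230) and Grm8 (ENSMUSG00000024211.15, minus strand, chr6:27275119-28135178) share a chromosome. Annotated genes on the other strand covered 470 of the 4894 exonic bases of Grm2, 599 of 5421 of Grm6 and 130 of 5886 of Grm7, and the kit does not mark strand, so reads there could come from either gene. A microRNA gene, Mir592, covered 96 of the 9898 exonic bases of Grm8. The exons of Grm3, Grm4 and Grm5 were shared with no other gene.

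The bases just upstream of the transcription start that RefSeq gives (GRCm38.p6) are shown for 3 receptors on which the results below turn. Grm2 and Grm3 belong to the same group and had opposite fraction differences. Grm8 was the receptor whose kainate and sham levels did not overlap in neurons, which also held for 7.86% of all genes. Each runs 5′ to 3′ on the strand of its gene, and capitals mark CG dinucleotides. The Grm2 bases are chr9:106656110-106656359, those of Grm3 chr5:9725353-9725602, and those of Grm8 chr6:28135179-28135396, where the window was trimmed at the annotated gene.
Grm2: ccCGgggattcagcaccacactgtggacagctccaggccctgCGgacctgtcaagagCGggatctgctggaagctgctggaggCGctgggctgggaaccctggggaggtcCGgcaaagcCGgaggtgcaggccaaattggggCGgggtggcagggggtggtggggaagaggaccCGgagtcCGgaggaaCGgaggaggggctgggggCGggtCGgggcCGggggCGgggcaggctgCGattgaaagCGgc
Grm3: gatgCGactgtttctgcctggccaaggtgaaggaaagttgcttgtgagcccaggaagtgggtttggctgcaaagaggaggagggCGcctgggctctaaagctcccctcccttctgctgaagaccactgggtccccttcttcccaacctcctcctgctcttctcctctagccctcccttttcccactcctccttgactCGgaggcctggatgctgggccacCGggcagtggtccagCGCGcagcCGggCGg
Grm8: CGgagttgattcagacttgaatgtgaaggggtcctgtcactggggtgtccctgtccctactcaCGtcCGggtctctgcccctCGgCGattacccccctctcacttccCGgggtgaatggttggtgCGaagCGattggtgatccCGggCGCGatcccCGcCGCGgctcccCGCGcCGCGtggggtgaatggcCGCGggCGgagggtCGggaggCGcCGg

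RefSeq windows were at hand for 5 of the 7 receptors, all but Grm4 and Grm5. The 250 bases upstream of Grm2 held 16 CG dinucleotides and those of Grm3 held 8, against a median of 6 over 32851 windows of that length. The first of 3 Grm8 windows held 29, of which 24 lie in the bases shown, and 93.2% of all windows held fewer. The other Grm8 starts had 8 and 2, Grm6 had 4, and both starts of Grm7 had 8 and 9. On either strand, the cyclic AMP response element TGACGTCA, present in 1.55% of all windows, was in none of these. Its half-site TGACG (17.8% of windows, and part of the full element) was in the second Grm8 window alone, and the AP-1 motif TGANTCA (6.75%) once in the first Grm8 window. A match is only a run of letters. DNA methylation was not analysed here.

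Levels are given as normalized CPM (counts scaled to a common library total, corrected by the trimmed mean of M values), and levels of different genes are compared as CPM per kb of exon. In sham neurons, Grm7 led with 73.4 ± 9.70 (SD, n = 3) CPM per kb, and its range overlapped that of Grm5, 64.2 ± 16.01. Grm2 followed with 37.8 ± 9.24, then Grm3 with 6.64 ± 2.21, Grm8 with 3.24 ± 0.985 and Grm4 with 2.75 ± 0.657. The ranges of Grm8 and Grm4 overlapped. Grm6 was last, at 0.405 ± 0.211. In sham NeuN- nuclei the order was another one, with Grm3 first at 69.2 ± 53.4 (n = 2), above Grm7 at 16.5 ± 1.83, Grm5 at 8.89 ± 1.79 and Grm2 at 3.84 ± 1.49. Grm4, Grm6 and Grm8 lay between 0.598 and 0.901 and overlapped.

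**Figure D1:**
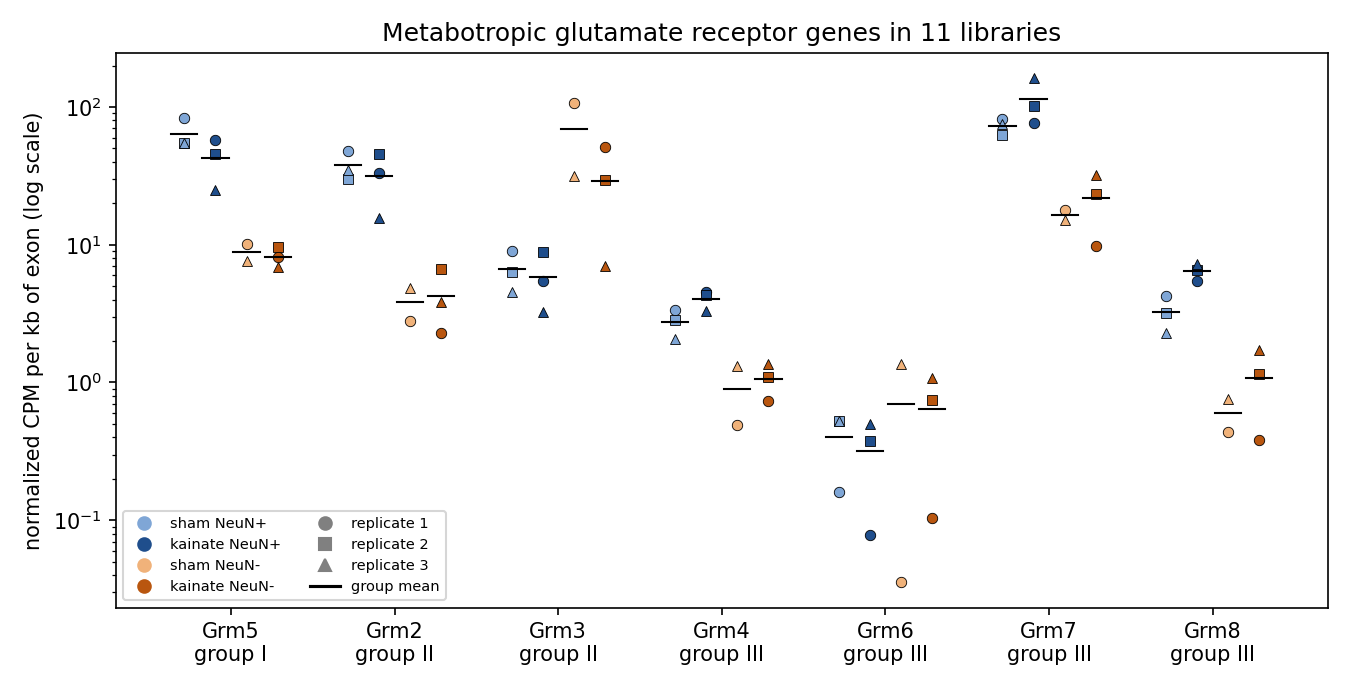
Normalized CPM per kb of exon (log axis) of the 7 receptor genes in each of the 11 libraries, with marker shapes for the replicate number and a bar for the group mean. In NeuN- nuclei Grm3 has the highest group means, 69.2 in sham and 29.2 in kainate nuclei, although in kainate replicate 3 it lies at 7.03 below Grm7 at 31.9, and the Grm6 libraries of replicate 1 lie far below the others.

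After kainate, the neuronal order had Grm7 at 113 ± 43.8 (n = 3) CPM per kb, above the range of Grm5 at 42.6 ± 16.6, which overlapped that of Grm2 at 31.4 ± 15.0. Grm8, at 6.43 ± 0.932, came next, ahead of Grm3 at 5.88 ± 2.85 and Grm4 at 4.06 ± 0.661, and these 3 ranges overlapped from one to the next. Grm6 had 0.318 ± 0.216. In kainate NeuN- nuclei, Grm3 at 29.2 ± 22.1 overlapped Grm7 at 21.7 ± 11.1. Below them came Grm5 at 8.22 ± 1.34 and Grm2 at 4.26 ± 2.19, while Grm8, Grm4 and Grm6 lay between 0.644 and 1.08 and overlapped. As a share of the summed CPM per kb of the 7 receptors, Grm3 took 3.49% ± 0.765 in sham neurons and 63.6% ± 19.1 in sham NeuN- nuclei. In kainate NeuN- nuclei this share was 70.4%, 40.9% and 13.1% in replicates 1, 2 and 3. The Grm5 share was 33.9% ± 2.38 in sham and 21.4% ± 10.0 in kainate neurons, and that of Grm7 was 39.3% ± 3.80 and 54.8% ± 17.5.

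The first comparison set NeuN+ against NeuN- nuclei over both treatments and asks in which fraction each receptor was transcribed. Grm2, Grm5, Grm8, Grm7 and Grm4 were higher in NeuN+ nuclei, Grm3 was higher in NeuN- nuclei, and Grm6 did not pass the test. With edgeR's quasi-likelihood test and a Benjamini-Hochberg false discovery rate (FDR) below 0.25, 6 of 7 receptors were called, against 37.2% of all genes tested. Of the 7, 5 were higher in NeuN+ nuclei, as were 16.8% of all genes, and 1 was lower, as were 20.4%. The median log2 fold change of the 7 was 2.27, and that of all genes was -0.47.

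In group I, Grm5 had 847, 563 and 563 CPM in sham and 591, 464 and 255 CPM in kainate neurons, in replicates 1, 2 and 3. Its NeuN- libraries had 104 and 78.1 CPM in sham (replicates 1 and 3) and 83.5, 98.2 and 70.9 CPM in kainate nuclei. The lowest neuronal library thus lay above the highest NeuN- library, and the fold was 6.12 (log2 2.61, standard error 0.32, FDR = 6.22e-05).

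In group II, Grm2 had 235, 148 and 172 CPM in sham and 162, 223 and 76.7 CPM in kainate neurons. In NeuN- nuclei it had 13.6 and 23.9 CPM in sham and 11.3, 32.4 and 18.8 CPM in kainate libraries. The fractions did not overlap, and Grm2 was 8.52-fold higher in neurons (log2 3.09, standard error 0.40, FDR = 8.64e-05). Grm3, the other group II receptor, ran the opposite way. It had 27.3, 19.4 and 14.0 CPM in sham and 16.7, 27.2 and 9.91 CPM in kainate neurons, and 326 and 95.7 CPM in sham and 156, 89.8 and 21.4 CPM in kainate NeuN- nuclei. The lowest NeuN- library, kainate replicate 3, lay below the highest neuronal libraries, so the fractions overlapped in that library. Grm3 was 7.19-fold higher in NeuN- nuclei (log2 -2.85 for NeuN+ against NeuN-, standard error 0.49, FDR = 0.000771).

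In group III, Grm7 had 481, 369 and 446 CPM in sham and 451, 599 and 953 CPM in kainate neurons, against 105 and 89.7 CPM in sham and 57.7, 138 and 188 CPM in kainate NeuN- nuclei. It was 4.82-fold higher in neurons (log2 2.27, standard error 0.36, FDR = 0.000402). Grm8 had 42.1, 31.6 and 22.6 CPM in sham and 53.8, 65.1 and 72.1 CPM in kainate neurons. Its NeuN- libraries had 4.35 and 7.49 CPM in sham and 3.76, 11.3 and 16.9 CPM in kainate nuclei, and the fold was 5.67 (log2 2.50, standard error 0.38, FDR = 0.000309). Grm4 had 20.1, 17.0 and 12.3 CPM in sham and 27.1, 26.0 and 19.8 CPM in kainate neurons. In NeuN- nuclei it had 2.94 and 7.83 CPM in sham and 4.39, 6.58 and 8.09 CPM in kainate libraries, and it was 3.40-fold higher in neurons (log2 1.77, standard error 0.32, FDR = 0.00121). For these 3 receptors, as for Grm2 and Grm5, every neuronal library lay above every NeuN- library. Across all genes, 15.2% had fractions that did not overlap.

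Grm6 had few counts in some libraries. The 4 libraries of replicate 1 held 3 to 13 counts (0.192 to 0.873 CPM), whereas the other 7 held 60 to 208 counts (2.04 to 7.34 CPM). Replicate 1 was thus lower than the others in every group, whatever the fraction or treatment. The log2 difference between the fractions was -0.89 (standard error 0.76, FDR = 0.441), with a 95% interval from -2.52 to 0.74. It was called in 3 of 24 alternative fits, at -1.34 without sham NeuN- replicate 1 (FDR = 0.123), at -1.27 without both low input libraries (FDR = 0.196) and at -0.60 with a block shared by both fractions (FDR = 0.228). Without sham NeuN- replicate 3 it turned to 1.25 (FDR = 0.389).

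The sort was checked on marker genes. Of 6 general neuronal markers, 5 were higher in NeuN+ nuclei, and all 8 astrocyte, 6 microglia, 6 oligodendrocyte, 5 oligodendrocyte precursor and 5 pericyte markers were lower. Of the 5 endothelial markers 4 were lower, and of the 6 interneuron markers 5 were higher. Among 5 markers of dentate granule neurons, 3 were higher in NeuN+ nuclei and 1 lower. The summed neuronal markers still reached 455 to 830 CPM in NeuN- libraries, against 2182 to 4465 CPM in NeuN+ libraries. Summed markers of dentate granule neurons had 481 to 1376 CPM in NeuN- and 362 to 1038 CPM in NeuN+ libraries, so their ranges overlapped. Astrocyte markers summed to 730.1 to 4805 CPM in NeuN- and 195 to 486 CPM in NeuN+ nuclei, and none of these markers was at 0. The part of other cells' RNA in the receptor levels was not tested. Counts of such pooled nuclei cannot tell fewer nuclei of a type from less RNA per nucleus.

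**Figure D2:**
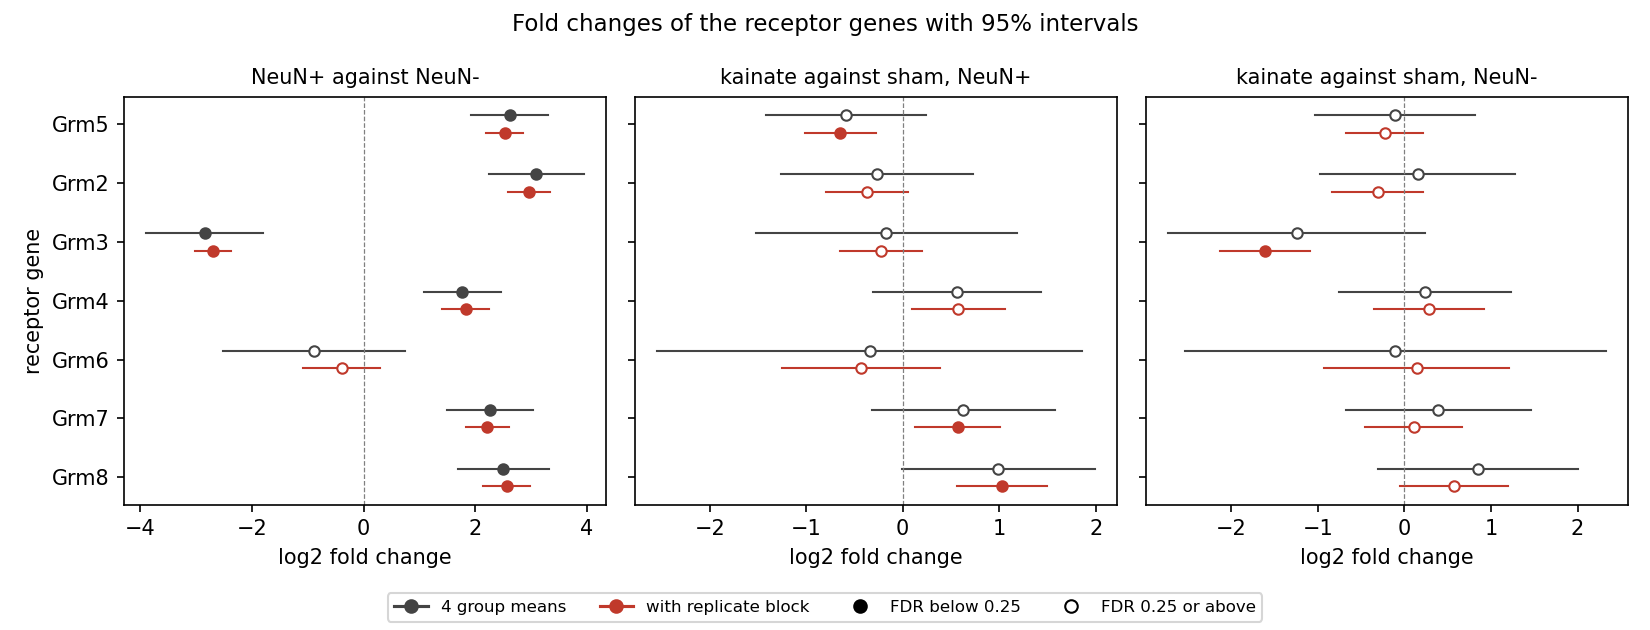
Log2 fold changes of the 7 receptor genes with 95% intervals for NeuN+ against NeuN- nuclei (left) and for kainate against sham in NeuN+ (middle) and NeuN- nuclei (right), from the fit to 4 group means (grey) and with the replicate number as a block (red). Filled points have an FDR below 0.25, which after kainate holds for Grm5 (-0.65), Grm7 (0.57) and Grm8 (1.03) in NeuN+ and Grm3 (-1.61) in NeuN- nuclei, all with the block.

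The second comparison asks how the receptors of neurons changed 24 h after kainate. In the fit to 4 group means, none of the 7 was called, against 0.165% of all genes. None had an unadjusted p below 0.05 in edgeR, and DESeq2 called none of them and 1.25% of all genes. The labels do not say what a replicate number marks. Deviations of same-numbered libraries from their group means correlated at 0.643, 0.161 and 0.491 for replicates 1, 2 and 3. Kainate 2 correlated as closely with sham 3 (0.166), and kainate 3 with sham 2 at 0.418. The number was also fitted as a block, a choice made on these same data. With it, Grm8 and Grm7 were higher and Grm5 was lower after kainate, 3 of 7 receptors against 5.09% of all genes (3.19% higher and 1.9% lower). Grm8, a presynaptic receptor, was the 1 receptor whose kainate and sham libraries did not overlap (53.8 to 72.1 against 22.6 to 42.1 CPM), which held for 7.86% of all genes.

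With the block, Grm8 was 2.04-fold higher (log2 1.03, standard error 0.23, 95% interval 0.56 to 1.49, FDR = 0.00335). Without it, the log2 value was 0.99 with an interval from -0.01 to 1.99 (FDR = 1.00). By number, the kainate library exceeded its sham library by 0.35, 1.04 and 1.67 on the log2 scale. All 3 pairs thus had the same direction, with replicate 3 the widest apart.

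Grm5, the group I receptor, was lower by 0.65 on the log2 scale with the block (log2 -0.65, standard error 0.18, interval -1.01 to -0.28, FDR = 0.0324) and stood at -0.59 without it (FDR = 1.00). Its pairs differed by -0.52, -0.28 and -1.15. The kainate library was the lower one in all 3, although replicate 1 of kainate (591 CPM) lay above sham replicates 2 and 3 (563 CPM each). Grm7 had log2 0.57 with the block (standard error 0.22, interval 0.13 to 1.01, FDR = 0.239) and 0.63 without it (FDR = 1.00). Here replicate 1 differed by -0.09, and replicates 2 and 3 by 0.70 and 1.10.

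These calls rested on replicate 3. Leaving out its kainate library ended all 3 block calls, with log2 0.70 for Grm8 (FDR = 0.555), -0.40 for Grm5 (FDR = 1.00) and 0.30 for Grm7 (FDR = 1.00), and leaving out its sham library gave nearly the same values (Grm8 FDR = 0.475). The call of Grm7 was also lost without kainate NeuN- replicate 2 (FDR = 0.260). A block shared by both fractions called none of them, with FDR = 0.651 for Grm8, 0.527 for Grm5 and 0.983 for Grm7. Over the 24 alternative fits, this one among them, the values kept their direction. They ranged from 0.79 to 1.23 for Grm8, -0.87 to -0.32 for Grm5 and 0.28 to 0.85 for Grm7.

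**Figure D3:**
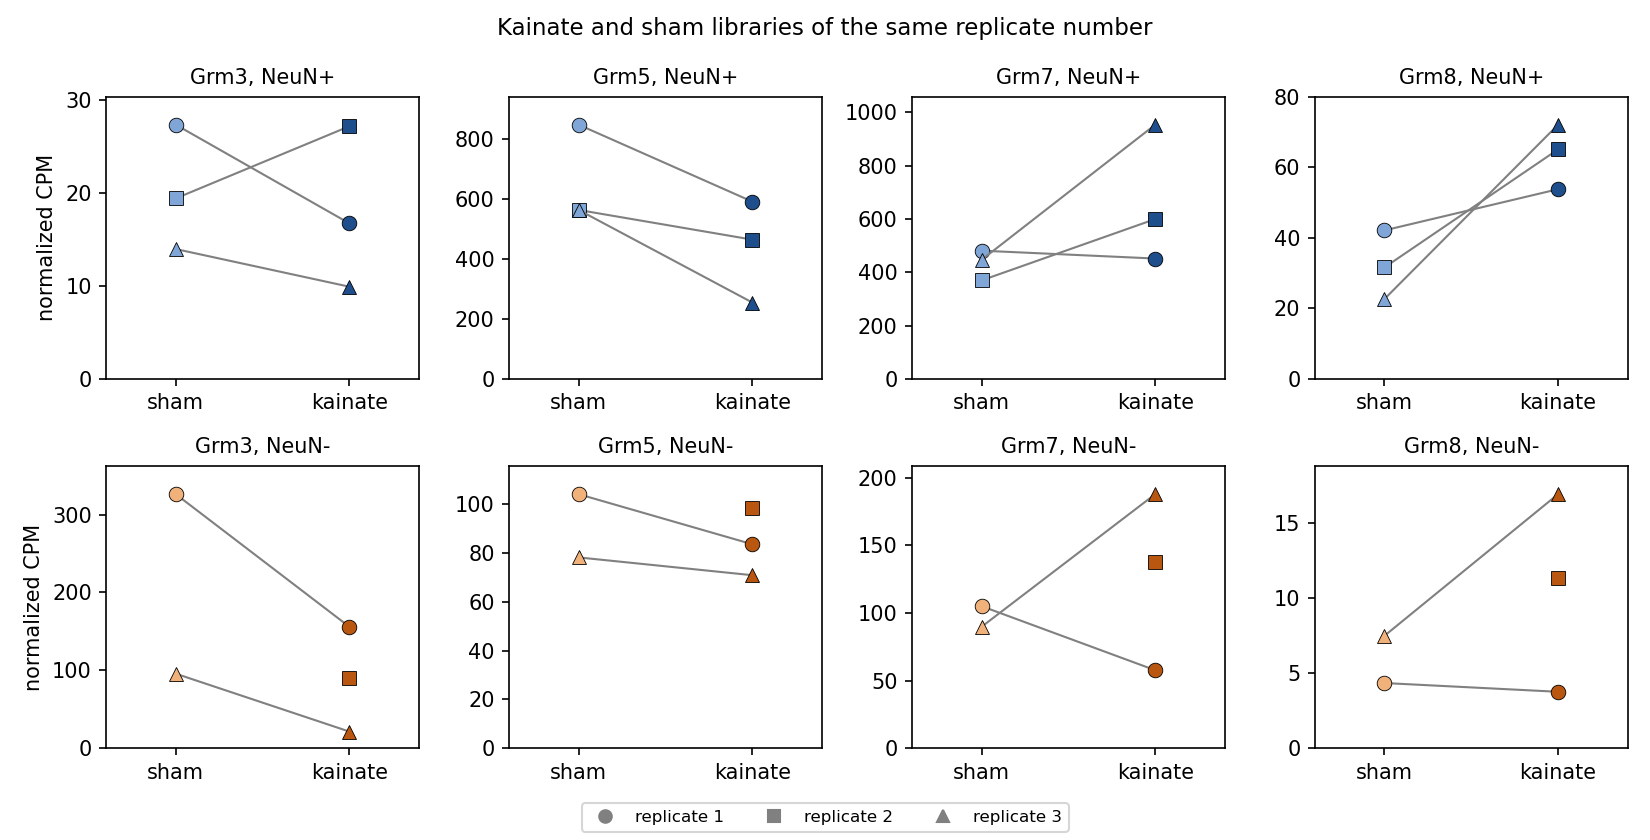
Normalized CPM (axes from 0) of Grm3, Grm5, Grm7 and Grm8 in sham and kainate libraries of NeuN+ (top) and NeuN- nuclei (bottom), with lines joining libraries of the same replicate number. Grm8 in NeuN+ nuclei rises along all 3 lines, Grm5 falls along all 3, and Grm3 in NeuN- nuclei falls along both, from 326 to 156 CPM and from 95.7 to 21.4 CPM.

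The other neuronal receptors were not called in either fit. Grm4 had log2 0.58 with the block (interval 0.10 to 1.06, FDR = 0.322), and its 3 pairs differed by 0.43, 0.61 and 0.69. Grm2 had -0.37 (interval -0.80 to 0.05, FDR = 0.690) with pairs at -0.54, 0.60 and -1.17, so replicate 2 went against the others. Without either library of replicate 2, the block called Grm2 at -0.85 and Grm3 at -0.60. Grm3 otherwise had -0.23 (FDR = 0.959) and Grm6 -0.43 (FDR = 0.959). Some cell type markers moved in the same libraries. The summed dentate granule neuron markers differed by -0.61, -0.31 and -0.85 between kainate and sham neurons of replicates 1, 2 and 3, and 4 of the 5 were called lower with the block. Summed interneuron markers differed by 0.08, 0.87 and 0.73, and 2 of 6 were called higher. Summed astrocyte markers, which were low in neurons, differed by 0.20, 1.01 and 0.84, and 5 of 8 were called higher and 2 lower. General neuronal markers differed by -0.12, 0.22 and -0.06. Their part in the receptor values was not tested.

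The third comparison asks the same of NeuN- nuclei. In the fit to 4 group means, none of the 7 receptors was called, against 0.101% of all genes, none had an unadjusted p below 0.05 in edgeR, and DESeq2 called none of them and 1.16% of all genes. With the block, Grm3, the receptor with the highest mean CPM per kb in this fraction, though its kainate range overlapped that of Grm7, was lower after kainate, 1 of 7 against 5.79% of all genes (2.93% higher and 2.86% lower). Kainate and sham libraries overlapped for every receptor, whereas 8.22% of all genes had groups that did not overlap.

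The Grm3 libraries after kainate had 156, 89.8 and 21.4 CPM, against 326 and 95.7 CPM in sham replicates 1 and 3. In both treatments replicate 1 was higher than replicate 3. Within numbers, kainate differed from sham by -1.06 and -2.16 on the log2 scale. The block gave log2 -1.61, a 3.04-fold lower level (standard error 0.26, interval -2.13 to -1.08, FDR = 2.31e-05), and the group means alone -1.25 (interval -2.73 to 0.24, FDR = 1.00). The block interval takes most of its spread from other genes and the NeuN+ libraries, and both pair values lay outside it. Kainate NeuN- replicate 2 has no sham partner and adds nothing to the block value. Leaving out 1 of the 4 paired NeuN- libraries leaves a single pair, whose spread is then taken from the NeuN+ libraries. The value was -2.19 without kainate replicate 1 and -2.16 without sham replicate 1, where replicate 3 remains. It was -1.06 without kainate replicate 3 (FDR = 0.114) and -1.07 without sham replicate 3 (FDR = 0.0663), where replicate 1 remains.

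RNA input was uneven among these libraries. Sham replicate 1, the highest for Grm3, was made from 0.05 ng, and its kainate partner from 1 ng. Without both low input libraries, the block value was -2.16 and rested on the replicate 3 pair (FDR = 6.25e-06), whereas the group means then differed by -0.08 (FDR = 1.00). With low input as a covariate and no block, the value was -0.89 (FDR = 1.00). Glial markers were also lower after kainate in the same pairs. Summed astrocyte markers differed by -0.35 and -0.80 in replicates 1 and 3, summed oligodendrocyte markers by -0.52 and -0.85, oligodendrocyte precursor markers by -0.98 and -1.62, and microglial markers by -0.92 and -0.01. With the block, 4 of 8 astrocyte markers were called lower and 1 higher, as were 5 of 5 oligodendrocyte precursor markers lower and 4 of 6 oligodendrocyte markers lower. How much of the Grm3 value goes with them was not tested.

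Among the other receptors of NeuN- nuclei, Grm8 had log2 0.57 with the block (interval -0.05 to 1.20, FDR = 0.579), and Grm7 had 0.11 (interval -0.45 to 0.67). Their pairs went both ways, with -0.21 and 1.18 for Grm8 and -0.86 and 1.06 for Grm7 in replicates 1 and 3. Grm5 had -0.23 (interval -0.68 to 0.22), Grm2 -0.31 (interval -0.84 to 0.22), Grm4 0.28 (interval -0.35 to 0.92) and Grm6 0.14 (interval -0.92 to 1.21). None of these 6 was called. With the block and a single pair left, Grm7 was called in both directions, at 1.03 without kainate replicate 1 (FDR = 0.0384) and 1.07 without sham replicate 1, and at -0.86 without kainate replicate 3 and -0.87 without sham replicate 3. Grm8 was called at 1.15 without kainate replicate 1 and 1.18 without sham replicate 1, and it stood at -0.20 without kainate replicate 3 and -0.21 without sham replicate 3. It was also called at 0.60 without kainate NeuN+ replicate 2 and 0.61 without sham NeuN+ replicate 2.

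The fourth comparison tested whether the kainate effect differed between the fractions. Both fractions came from the same pools, which neither the fit to group means nor the block within fractions took into account. None of the 7 was called in the fit to group means, against 0.00246% of all genes, none had an unadjusted p below 0.05 in edgeR, and DESeq2 called none of them and 0.102% of all genes. With the block, Grm3 was called, 1 of 7 against 1.94% of all genes, of which 1.23% were positive like it. Its kainate effect was 1.38 higher on the log2 scale in NeuN+ than in NeuN- nuclei (standard error 0.33, interval 0.71 to 2.05, FDR = 0.0226), from -0.23 in NeuN+ and -1.61 in NeuN- nuclei. This call was lost without kainate NeuN- replicate 3 (0.80, FDR = 0.411) or sham NeuN- replicate 3 (0.84, FDR = 0.365). Over 24 alternative fits, the Grm3 difference ranged from -0.09 to 1.82 and was called in 1, the block within fractions. With the pool as a block, which pairs the fractions, the Grm3 difference was 1.17 and was not called. It was negative in the fits to group means without sham NeuN- replicate 1 (-0.09) and without both low input libraries (-0.09). With the block, glial markers differed in the same direction, with 8 of 8 astrocyte markers positive and 5 called (median 1.06), and 5 of 5 oligodendrocyte precursor markers positive and 3 called (median 0.86). Of the 6 oligodendrocyte markers, all were positive and 1 was called (median 0.62). Their part in the Grm3 difference was not tested. For Grm8, the effects in both fractions differed by 0.45 (interval -0.33 to 1.23), for Grm7 by 0.46 (interval -0.25 to 1.17) and for Grm5 by -0.42 (interval -0.99 to 0.16), none of them called. The difference for Grm7 was called without kainate NeuN- replicate 3 (FDR = 0.0611) and, at 1.44, without sham NeuN- replicate 3, and stood at -0.51 without kainate NeuN- replicate 1. That for Grm8 was called at 1.23 without sham NeuN- replicate 3 (FDR = 0.238).

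The receptors act within a chain of proteins, of which 64 genes were listed, and all 64 passed the filter. Between the fractions, 39 were higher in NeuN+ nuclei and 13 in NeuN- nuclei (16.8% and 20.4% of all genes), and their median on the log2 scale was 1.19. Among the scaffolds and partners, 12 of 14 were higher in neurons and none lower. Among the genes with the smallest p were Frmpd4 (2.57), a scaffold of group I receptors, and Grasp (2.49), the gene of the trafficking protein tamalin. On the NeuN- side they were Folh1 (-4.23), whose enzyme splits the mGlu3 agonist N-acetylaspartylglutamate, Glul (-3.67), the glutamine synthetase of astrocytes, and Itpr2 (-3.07), a calcium release channel.

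After kainate in neurons, 1 of the 64 was called in the fit to group means (0.165% of all genes), and 10 were higher and 5 lower with the block (3.19% and 1.9% of all genes). The median log2 fold changes were -0.06 and -0.05, and that of all genes was -0.01 in the first fit. The gene called in both was Rgs4, a regulator that shortens Gi/o and Gq signals. It had 116, 53.7 and 36.8 CPM in sham and 467, 513 and 387 CPM in kainate neurons, with no overlap and log2 2.73 (standard error 0.48, FDR = 0.108). In the fit to group means this call was lost without kainate replicate 2 (2.64, FDR = 0.415), sham replicate 2 (2.58, FDR = 0.805) or sham replicate 3 (2.43, FDR = 0.746). With the block, Homer1, a scaffold that ties group I receptors to calcium stores, was higher by 1.54 (FDR = 6.98e-08), as were Rgs2 by 1.69 (FDR = 2.98e-07) and Grasp by 1.32 (FDR = 7.83e-07). Homer1 rose from 199.7, 141 and 148 CPM in sham to 650, 566 and 280 CPM in kainate neurons. Folh1, near 1 to 6 CPM in neurons, was lower, at -1.63 (FDR = 6.31e-06). By role, the block called 5 of 11 regulators of signalling higher, 3 of 14 scaffolds higher and 1 lower, and 2 of 16 effectors lower. Of the glutamate transporters it called 1 of 3 higher and 1 lower, of the genes for ligand synthesis and release 1 of 10 higher and 1 lower, and of the 10 G protein subunits none. By an unadjusted p below 0.05 in edgeR with the block, 1 of the 10 subunits passed, as did 3668 of the 40714 genes tested.

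In NeuN- nuclei, none of the 64 was called in the fit to group means (0.101% of all genes), while DESeq2 called 3 (1.16% of all genes). In edgeR's fit to group means, 5 had an unadjusted p below 0.05, as did 834 of the 40714 genes tested. With the block, 3 were higher and 9 lower (2.93% and 2.86% of all genes), and the median log2 fold change was -0.20, against 0.11 for all genes. Folh1 was lower by 2.14 on the log2 scale (log2 -2.14, FDR = 6.55e-08), with 164 and 52.3 CPM in sham replicates 1 and 3 and 46.7, 22.0 and 9.36 CPM after kainate. Sham replicate 1, the higher, was made from 0.05 ng of RNA, and without it the group means differed by -0.98 (FDR = 0.980). Both glutamate transporters of astrocytes were lower, Slc1a3 at -1.21 (FDR = 0.000469) and Slc1a2 at -1.12 (FDR = 0.00115), and both also belong to the astrocyte markers above. Without sham replicate 1 their group means differed by 0.36 and 0.26. The glial markers that were lower in these pairs, among them 5 of 5 of oligodendrocyte precursors (-0.98 and -1.62 for their sum) and 4 of 6 of oligodendrocytes (-0.52 and -0.85), stand beside all these genes as beside Grm3, and their part was not tested. Grk3, a receptor kinase, was lower, at -0.99 (FDR = 0.00540). This call was lost without sham replicate 1, although the Grk3 value stayed between -1.14 and -0.83 over the 12 block fits with libraries left out. Rgs4 was higher here too, at 1.66 (FDR = 7.33e-05), with 0.81 and 2.51 in the pairs of replicates 1 and 3, and its call was lost without kainate replicate 3 (0.82, FDR = 0.270). Between the fractions, the block called the kainate effect of 5 of the 64 higher in NeuN+ nuclei, namely Slc1a2, Rgs2, Rgs4, Arrb1 and Elfn1, and of none lower. Those of Rgs2, Rgs4, Arrb1 and Elfn1 were lost without kainate or sham NeuN- replicate 1. Among all genes, 1.23% were called higher in this test.

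**Figure D4:**
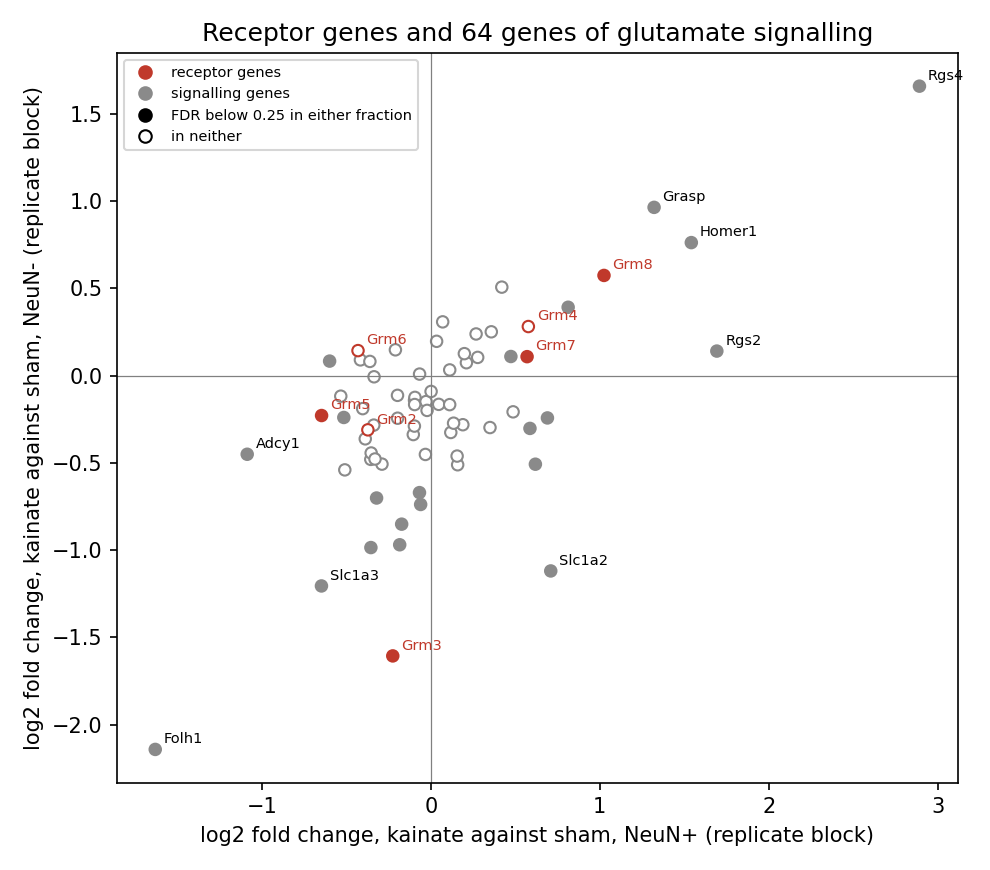
Log2 fold changes after kainate with the replicate block in NeuN+ (horizontal axis) and NeuN- nuclei (vertical axis) for the 7 receptor genes (red) and 64 genes of glutamate signalling (grey), filled where the FDR was below 0.25 in either fraction. Rgs4 lies farthest to the upper right (2.89 and 1.66), Grm8 is the receptor farthest to the right (1.03), and Grm3 and Folh1 lie lowest (-1.61 and -2.14).

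Finally, each receptor was set beside 24721 other genes by the Pearson correlation of log2(CPM + 1) over the 11 libraries. These points share the fraction, the pool and the replicate number, so the values only describe a pattern. Grm2 was nearest to Bcl11a (r = 0.994), Ybx2 (0.992) and Sphkap (0.991). Grm3 was nearest to Pantr2 (0.985), Chn2 (0.984) and Cep97 (0.983). For Grm5 they were Kcnab1 (0.996), Ptk2b (0.994) and Gm45619 (0.994), and for Grm7 Gm26548 (0.990), Unc13b (0.986) and Nrxn3 (0.985). Grm8 stood nearest to Armc9 (0.986), Rgs8 (0.984) and Smoc2 (0.984), and of these Rgs8 was among the regulators called higher in kainate neurons with the block (0.81, FDR = 0.00638). Rgs8 was called in 10 of 12 block fits with libraries left out (0.67 to 0.97) and was not called in the fit to group means. Grm4 had Vwc2l (0.984), Gm37717 (0.981) and Trpv6 (0.980) as its nearest genes. Those of Grm6 were Nod2 (0.998), Cbln3 (0.996) and Capn13 (0.993).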

How the data were processed

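mRNA was amplified from sorted nuclei with the SMART-Seq v4 kit and sequenced in 11 libraries. The authors ran Trim Galore (version 0.4.3) on the reads, aligned them to mm10 with Rsubread (version not given in the sources used here) and counted unique reads per gene of GENCODE M16 with featureCounts. The deposited values are these raw counts of 53379 genes. One protocol text speaks of right hippocampi, but the sample titles give the left side, taken as correct here. Which library ran on which sequencer is not in the labels, and the 11 bisulfite samples were not analysed here.

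Genes lacking a symbol (105) were dropped, and filterByExpr in edgeR 4.0.16 (minimum count 10, minimum total 15; R 4.3.3) kept 40714 genes. A quasi-likelihood model (legacy=TRUE) was fitted to 4 group means with TMM factors, p-values were adjusted over all genes by Benjamini-Hochberg, and genes were called at FDR below 0.25, the threshold of the study. The common coefficient of biological variation came to 0.600, with 7 residual degrees of freedom, or 3 with the replicate block, which was fitted within each fraction. The tests and intervals used 13.8 degrees of freedom, or 51.0 with the block, since edgeR adds what all genes tell about the spread. The block p-values and intervals thus rest mostly on spread shared across genes. The replicate numbers come from the labels, which do not say what a number marks. Deviations of same-numbered kainate and sham libraries from their group means correlated at 0.643, 0.161 and 0.491 in NeuN+ nuclei and were taken as pairs, since each was above 0.1. Of the libraries with different numbers, kainate 2 and sham 3 correlated at 0.166 and kainate 3 and sham 2 at 0.418, close to the values of their own numbers, and the other 4 combinations were negative. In NeuN- nuclei the same-number values were 0.760 and 0.787, where 2 sham libraries mirror each other. Standard errors are the absolute log2 fold change over the root of F. Exon lengths and coordinates come from GENCODE M21 on GRCm38.

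The receptors, the 64 signalling genes and the marker lists were chosen with earlier results of these data known. All 7 receptors are named, along with up to 5 signalling genes of smallest p per kainate comparison among those called, 3 in each direction between the fractions (1 of these is not reported here), and the 3 genes nearest to each receptor by correlation among genes with a mean CPM of at least 1. Alternatives were DESeq2 1.42.0, other filters and quasi-likelihood options, separate fits, the replicate number or the pool as a block, RNA input, and leaving out each library.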

Additional observations from a re-analysis of the deposited data

Results flagged for a closer look

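The kainate effect differed between NeuN+ and NeuN- nuclei in edgeR's test of the difference itself with the replicate block for 1 of 7 receptors and 5 of 64 signalling genes, each higher in NeuN+ nuclei, as were 1.23% of all genes tested (1.94% in either direction). It was higher in NeuN+ nuclei by 1.38 on the log2 scale for Grm3 (FDR = 0.0226). This call was lost without kainate NeuN- replicate 3 (0.80, FDR = 0.411), and without sham NeuN- replicate 3 the value was 0.84. With a block shared by both fractions the call was lost (FDR = 1.00) at a value of 1.27. Without the block, the value turned to -0.09 when sham NeuN- replicate 1 was left out. Glial markers moved the same way with the block. All 8 astrocyte markers, Slc1a2 among them, were positive (5 called, median 1.06), as were all 5 oligodendrocyte precursor markers (3 called, median 0.86), and their part in these values was not tested. Among the signalling genes, the difference was 1.83 for the glutamate transporter gene Slc1a2 (FDR = 0.000104), 1.55 for Rgs2 (FDR = 0.0131) and 1.23 for Rgs4 (FDR = 0.0992). For Arrb1, which encodes a beta-arrestin, it was 0.93 (FDR = 0.192), and for Elfn1, whose protein binds group III receptors across the synapse, 1.13 (FDR = 0.222). Without the block, none of these 6 passed the threshold. In the 12 block fits with libraries left out, Slc1a2 was called in 12 (1.46 to 2.16), Rgs2 in 9 (0.97 to 2.10), Rgs4 in 7 (0.36 to 2.08), Arrb1 in 7 (0.48 to 1.36) and Elfn1 in 3 (0.98 to 1.24). Without kainate or sham NeuN- replicate 1, the calls of Rgs2, Rgs4, Arrb1 and Elfn1 were lost. The 2 NeuN- pairs, of replicates 1 and 3, stood at 0.81 and 2.51 for Rgs4, at -0.41 and 0.70 for Rgs2 and at -0.67 and 0.19 for Arrb1, so the last 2 differed in sign.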

How the results depend on the processing

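The fraction difference kept its direction and its call for Grm2, Grm3, Grm4, Grm5, Grm7 and Grm8 under the 24 alternatives listed for the fits and the 12 block fits that left out libraries. The kainate results depended on the replicate block. The block within fractions moved the receptors called from 0 to 3 in NeuN+ nuclei, to 1 in NeuN- nuclei and to 1 for the difference between fractions, while the share of all genes called moved from 0.165% to 5.09%, from 0.101% to 5.79% and from 0.00246% to 1.94%. The block shared by both fractions gave 1 in NeuN- nuclei (1.54% of all genes). With the block and 1 library left out at a time, an alternative added after the data were seen, the receptors called numbered 0 to 5 (1.92% to 7.3% of all genes), 1 to 3 (1.97% to 9.84%) and 1 to 2 (0.637% to 6.53%), and without both low input libraries 3 (5.15%), 3 (1.97%) and 1 (0.62%). In those fits, Grm8 in NeuN- nuclei ranged from -0.21 to 1.18 and was called in 5 of 12, and the difference between fractions of Grm7 ranged from -0.51 to 1.44 and was called in 2. Grm7 in NeuN- nuclei reached 1.07 and turned to -0.86 without kainate replicate 3 and -0.87 without sham replicate 3. The fraction difference of Grm6 was called in 3 of 12 and in both directions. It was -0.70 without sham NeuN- replicate 1, -0.65 without kainate NeuN- replicate 3 and 0.72 without kainate NeuN- replicate 2. In the fits without the block it ranged from -1.34 to 1.25 with a library left out, and the Grm3 difference between fractions from -0.09 to 1.82. Of the 64 signalling genes, 1 was called in NeuN+ nuclei (0.165% of all genes). This count was 15 with the block (5.09%), 6 with the shared block (1.78%), 5 in a separate fit (1.29%), 4 with DESeq2 (1.25%), 3 when genes needed 1 CPM in 3 libraries (0.468%), 0 at FDR below 0.05 (0.0196%), and 0 to 3 with a library left out (0.0123% to 0.413%). In NeuN- nuclei it was 0 (0.101%), but 12 with the block (5.79%), 5 with the shared block (1.54%), 3 with DESeq2 (1.16%), and 0 to 3 with a library left out (0.00225% to 6.59%). For the difference between fractions, the block moved it from 0 to 5 (1.94%). The cause of these shifts was not tested. Where a sham NeuN- library is left out, the lone one is assumed to vary as much as the libraries of the other groups, and leaving out a NeuN+ library is no check of the NeuN- estimates. With 2 or 3 pools per group, wide intervals limit what the kainate comparisons can show, and Grm6 is limited by its 3 to 208 counts.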
